A study of Mus musculus with 6 samples.

Results

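The CIS/SOCS family comprises 8 intracellular inhibitors of cytokine signalling, Socs1 to Socs7 and Cish. Its transcripts were examined in B16-BL6 mouse melanoma cells with and without the receptor chain IFNγR1. The members were found in the count tables by Ensembl identifier, matched through GENCODE release M21. All 8 were among the 55335 genes listed, and 5 of them (Socs3, Socs4, Socs5, Socs6 and Socs7) were among the 13642 genes that had enough counts to be tested. Only Socs3 passed the test. It was lower in IFNγR1KO cells, at 7.53 ± 0.898 CPM (SD, n = 3) against 13.4 ± 1.46 CPM (SD, n = 3) in scrambled control cells. CPM here scale each gene's counts to a common total over the tested genes, with library sizes set by the TMM method.

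Scrambled control cells (3 cultures, given as WT in the labels) carried a guide RNA against GFP, a gene that the mouse genome lacks, and IFNγR1KO cells (3 cultures, numbered 10, 11 and 12) carried guides against Ifngr1. Both had received lentiCRISPR v2 with Cas9, were selected with puromycin and were grown from single cells, so each genotype stands for few clones. Whether the cultures of a genotype came from the same clone is not given in the sources used here. The cultures were seeded overnight as triplicates, and the methods name no cytokine added before RNA was extracted. Poly(A) RNA was then sequenced with paired-end reads. Because nothing says that the cultures are independent clones, the p-values measure the spread between these cultures only.

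SOCS proteins bind phosphorylated tyrosines of cytokine receptors or JAK kinases through an SH2 domain, and their SOCS box recruits elongins and Cullin-5 to mark bound proteins for degradation. Socs1, Socs3 and Cish are textbook feedback genes: cytokines activate STAT factors, STAT factors switch these genes on, and the proteins then dampen the same receptors. Socs1 and Socs3 also hold a kinase inhibitory region that blocks JAK kinases directly. Socs1 restrains interferon receptors, Socs3 the gp130 family of receptors, Cish and Socs2 the receptors that use STAT5, and Socs4 to Socs7 are better known for acting on growth factor and insulin receptor pathways.

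The promoters of the 3 feedback genes are shown because STAT and interferon regulatory factor (IRF) motifs are what places them downstream of cytokine receptors. They are RefSeq sequences on GRCm38.p6, written 5′ to 3′ on the strand of the gene, with position 1 at the RefSeq start. RefSeq windows were at hand for 4 of the 8 members (Cish, Socs1, Socs3 and Socs4). Capitals mark the STAT motif TTCNNNGAA in Socs3 and Cish and the IRF core GAAANNGAA in Socs1. The Socs3 sequence is chr11:117969367-117969616 (minus strand, positions -250 to -1), the Socs1 sequence is chr16:10785537-10785786 (minus strand, positions -250 to -1), and the Cish sequence is the 30 bases chr9:107296654-107296683 (plus strand) around its motifs.
Socs3: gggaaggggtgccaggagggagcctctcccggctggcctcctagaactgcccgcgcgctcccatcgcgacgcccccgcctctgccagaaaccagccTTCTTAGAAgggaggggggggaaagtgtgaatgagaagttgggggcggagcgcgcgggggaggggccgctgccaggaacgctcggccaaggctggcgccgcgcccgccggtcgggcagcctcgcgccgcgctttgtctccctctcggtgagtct
Socs1: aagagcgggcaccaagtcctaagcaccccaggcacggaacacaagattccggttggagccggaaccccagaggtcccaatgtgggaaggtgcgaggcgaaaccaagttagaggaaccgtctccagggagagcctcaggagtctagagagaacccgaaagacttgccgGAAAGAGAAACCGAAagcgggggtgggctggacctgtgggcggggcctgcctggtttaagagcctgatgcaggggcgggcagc
Cish: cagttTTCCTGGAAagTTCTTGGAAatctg

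Socs3 held 1 STAT motif, at positions -154 to -146, in a sequence of 71.6% GC. Cish held 2, at positions 1 to 9 and 12 to 20, both just past its RefSeq start. Socs1 held 2 IRF cores, at -83 to -75 and -77 to -69, which share bases with each other. Searched on both strands, the window of Socs4 held neither motif, and none of the 4 windows held the CRE letters TGACGTCA or the TATA letters TATAAA. Of all 32851 RefSeq promoter windows of the same length, 8.3% held the STAT motif, 8.56% the IRF core, 1.79% the CRE letters and 13.6% the TATA letters. These matches describe letters and show no binding. In GENCODE M21, Socs3 (minus strand, to base 117970047) and Cish (plus strand, from base 107296026) begin upstream of the RefSeq starts. The positions given for these 2 genes therefore depend on the start used.

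Total counts on genes ranged from 9402640 to 10579788 in control libraries and from 6698956 to 7409479 in IFNγR1KO libraries. A single count was therefore worth 0.0966 to 0.109 CPM in control and 0.135 to 0.142 CPM in IFNγR1KO libraries. Control 3 and IFNγR1KO 12 stood apart from the other libraries of their groups: the chi-square per degree of freedom was 9.99 between control 1 and 2 and 2.74 between IFNγR1KO 10 and 11, but at least 16.2 in every pair with either of them. Ifngr1 was counted 154, 144 and 172 times in control libraries and 80, 85 and 82 times in IFNγR1KO libraries, a log2 fold change of -0.47 (SE 0.16) that missed the threshold of 0.05 (Benjamini-Hochberg adjusted p = 0.0729 by edgeR's quasi-likelihood test). A short edit can leave a transcript in place, so this level does not check the genotype. Of 8 melanocyte markers, 7 were counted in every library, with a summed level of 31700 to 34700 CPM in control and 27900 to 32800 CPM in IFNγR1KO libraries, while Ednrb was at 0. Of 15 markers of leukocytes, fibroblasts, endothelium and epithelium, 13 had 3 counts or fewer in all libraries. All 15 summed to 3.68 to 5.32 CPM in control and 2.03 to 2.98 CPM in IFNγR1KO libraries. Most of that was Pdgfra, a fibroblast marker, at 4.13, 3.18 and 3.48 CPM in control and 2.42, 1.76 and 2.11 CPM in IFNγR1KO libraries (log2 fold change -0.77, adjusted p = 0.0866 by edgeR), and its part in the results was not tested. Those at 0 included Cd3e, Itgam, Adgre1, Lum, Cdh5 and Kdr.

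Socs3 (ENSMUSG00000053113.3, GRCm38 chr11:117966079-117970047, minus strand), the inhibitor of gp130 receptors and JAK kinases, stood at 11.7, 13.9 and 14.5 CPM in control 1, 2 and 3. In IFNγR1KO 10, 11 and 12 it stood at 7.53, 6.64 and 8.43 CPM. The counts behind these values were 108, 140 and 150 against 53, 49 and 60. Every IFNγR1KO library was below every control library. The log2 fold change was -0.83 (SE 0.19, 95% interval -1.24 to -0.42), and Socs3 fell by the quasi-likelihood test of edgeR, Benjamini-Hochberg adjusted over all tested genes (adjusted p = 0.011). Among all tested genes 15.3% passed this test in either direction, 7.62% as lower and 7.73% as higher, so a call by itself is common in these data. The groups did not overlap for 32.6% of tested genes. Socs3 does not meet the study's rule for a differentially expressed gene, which also asks for an absolute log2 fold change above 1 and which 5.2% of tested genes met. Leaving out IFNγR1KO 11 ended the call (log2 fold change -0.73, adjusted p = 0.0728), and leaving out both libraries that stood apart kept it (-0.86, adjusted p = 0.0076). In bulk RNA, fewer cells that express a gene and less RNA per cell cannot be told apart.

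**Figure D1:**
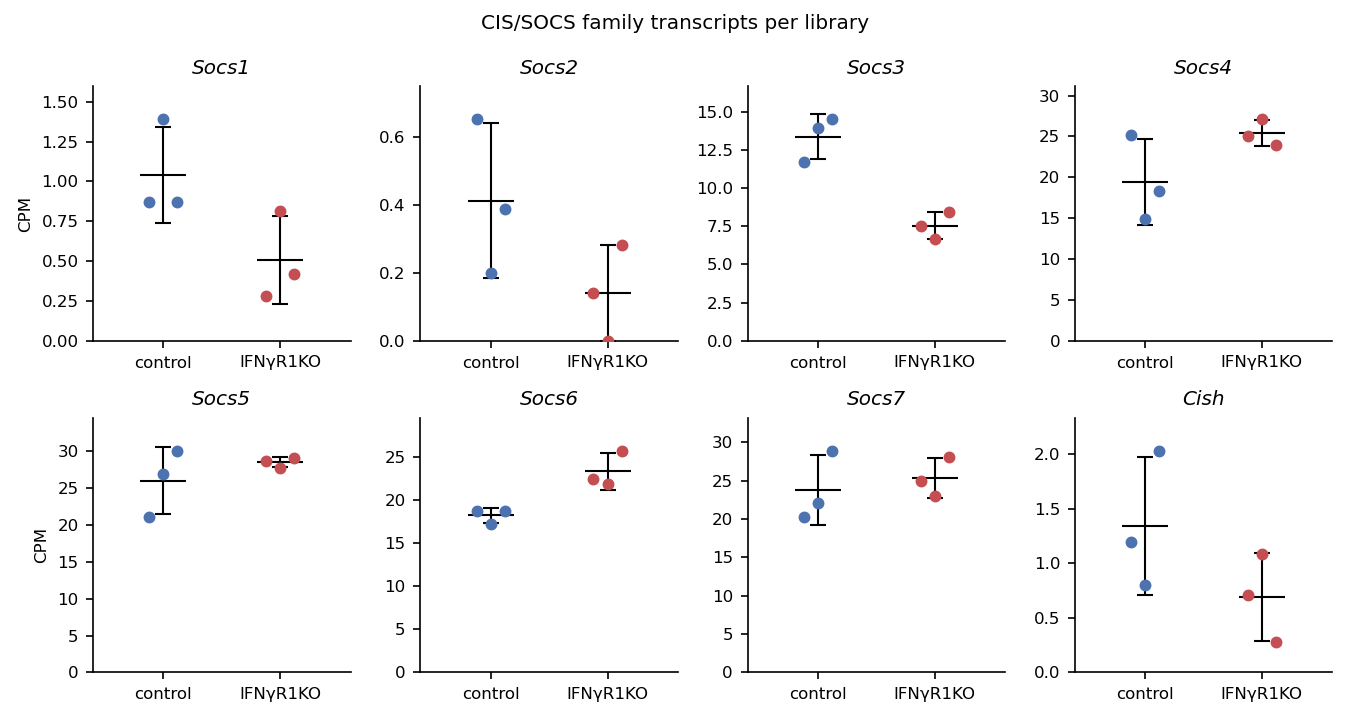
CPM (linear axes from 0, 1 panel per member, each with its own scale) of the 8 CIS/SOCS transcripts in 3 control (blue) and 3 IFNγR1KO (red) libraries; dots are libraries, and bars the mean ± SD. Socs3 lies at 11.7 to 14.5 CPM in control and 6.64 to 8.43 CPM in IFNγR1KO cells, Socs4 to Socs7 lie at 14.9 to 30.1 CPM over both groups, and Socs1, Socs2 and Cish lie at or below 2.03 CPM.

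Socs1 (GRCm38 chr16:10782240-10785536, minus strand), the inhibitor of interferon receptors, was nearly silent in these untreated cells. It was counted 8, 14 and 9 times in control and 2, 6 and 3 times in IFNγR1KO libraries, which is 0.868, 1.39 and 0.87 CPM against 0.284, 0.813 and 0.422 CPM. The groups did not overlap, but the highest IFNγR1KO library and the lowest control library were 2 counts apart. Pooled over libraries, the level was 0.511 CPM in IFNγR1KO against 1.05 CPM in control cells, a ratio of 0.488 with an exact 95% counting interval of 0.221 to 0.997. That interval covers counting error only, and Socs1 was under the count filter. Fitted without the filter, its log2 fold change was -1.04 (Benjamini-Hochberg adjusted p = 0.339 by the quasi-likelihood test of edgeR), so a difference beyond the spread between cultures was not detectable at this depth.

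Cish (GRCm38 chr9:107296026-107302784, plus strand), which acts on receptors that use STAT5, was also too low to be tested. Its counts were 11, 8 and 21 in control and 5, 8 and 2 in IFNγR1KO libraries, which is 1.19, 0.796 and 2.03 CPM against 0.71, 1.08 and 0.281 CPM. The groups overlapped: IFNγR1KO 11 was above control 2. The pooled ratio was 0.516 (exact 95% counting interval 0.265 to 0.954), and without the filter the adjusted p was 0.293 by edgeR. Of the exonic bases of Cish, 11.5% lie opposite exons of Gm17040 or Gm17041, and these had 5 counts or fewer in every library.

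Socs2 (GRCm38 chr10:95385362-95417180, minus strand), the inhibitor of growth hormone receptor signalling, had the fewest reads of the family. It was counted 6, 2 and 4 times in control libraries and 1, 0 and 2 times in IFNγR1KO libraries. All IFNγR1KO libraries were thus under the floor of 3 counts that a count of 0 allows, which is 0.406 to 0.426 CPM in these libraries. The pooled ratio of 0.344 had a counting interval of 0.0623 to 1.27. The 3 members below the filter were all lower on average in IFNγR1KO cells. Together they had 83 counts in control and 29 in IFNγR1KO libraries, not scaled for the greater depth of the control libraries. None of the 3 members passed a test.

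Socs4 to Socs7, which are less tied to STAT feedback, did not pass the test in either direction. Socs4 (GRCm38 chr14:47276931-47296102, plus strand), linked to growth factor receptors, stood at 25.2, 14.9 and 18.3 CPM in control and at 25.1, 27.1 and 24 CPM in IFNγR1KO libraries. Control 1 was as high as the IFNγR1KO libraries, whereas the other 2 control libraries were below all of them. The log2 fold change was 0.39 (SE 0.19, 95% interval -0.02 to 0.8, adjusted p = 0.2 by edgeR). This outcome depended on single control libraries. Without control 1 the log2 fold change was 0.61 and the adjusted p 0.0477 by edgeR, just under the threshold. Without control 2, the lowest library, they were 0.23 and 0.496. Of the 6 fits that left out 1 library, 1 called Socs4.

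Socs5 (GRCm38 chr17:87107679-87137839, plus strand), also linked to growth factor receptors, stood at 21.1, 26.9 and 30.1 CPM in control and at 28.7, 27.8 and 29.1 CPM in IFNγR1KO libraries. The IFNγR1KO values lay inside the control range, and the 95% interval of the log2 fold change ran from -0.22 to 0.48. Socs7 (ENSMUSG00000038485.6, GRCm38 chr11:97362551-97398542, plus strand), which binds insulin receptor substrates, stood at 20.2, 22.1 and 28.9 CPM in control and at 25, 23 and 28.1 CPM in IFNγR1KO libraries. Its values overlapped as well, with an interval of -0.28 to 0.47. Control 1 held the lowest value of both genes.

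Socs6, which acts on insulin and Kit receptor signalling, stood at 18.7, 17.2 and 18.7 CPM in control and at 22.4, 21.8 and 25.7 CPM in IFNγR1KO libraries. Every IFNγR1KO library was above every control library, yet the gene missed the threshold (log2 fold change 0.36, SE 0.15, 95% interval 0.03 to 0.69, adjusted p = 0.133 by edgeR). Of the 5 members tested, 1 was called lower, 0 were called higher and 2 did not overlap between groups. That is 20% called, near the 15.3% called over all tested genes, of which 32.6% did not overlap. The median log2 fold change of the 5 members was 0.13, against 0 over all tested genes.

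**Figure D2:**
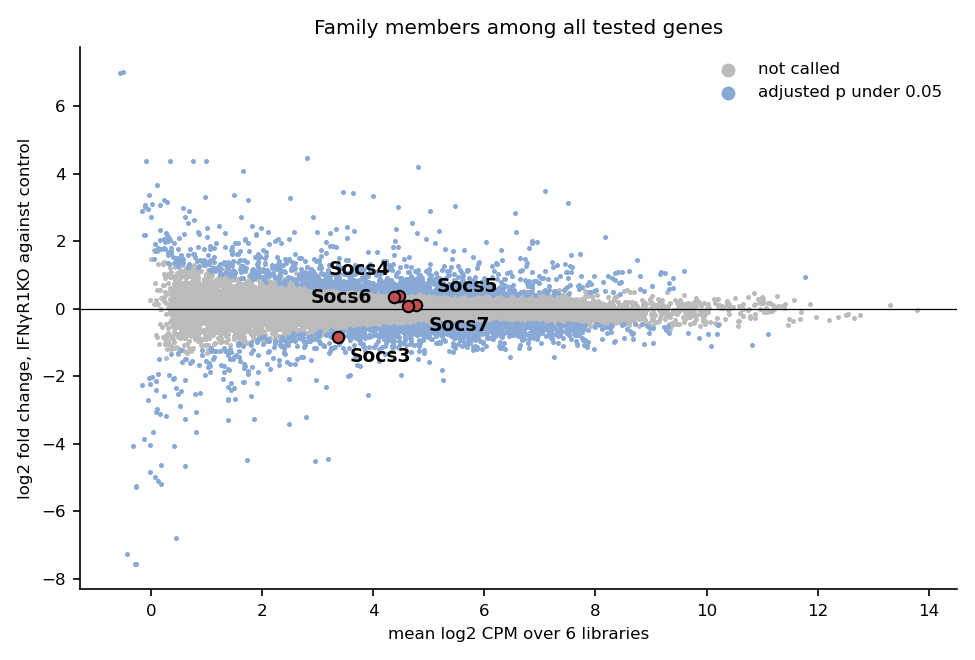
Log2 fold change (IFNγR1KO minus control) against mean log2 CPM for all 13642 tested genes (blue where the adjusted p was under 0.05, grey otherwise), with the 5 tested members in red. Socs3 is the member at -0.83, and the other 4 lie between 0.1 and 0.39.

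Little of the members' sequence is shared with other genes. No 50-base stretch of one member's GENCODE M21 transcripts occurred in another member, and Socs1, Socs3, Socs5 and Socs7 shared none with any other gene. The shared fraction was 0.306% for Socs4, 4.58% for Socs2 and 9.35% for Cish. For Socs6 it was 6.14%, shared with Gm13188 and Gm9449.

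Levels can be set against each other only per length, here as CPM per kilobase of exonic sequence. In control cells Socs3 led the family at 4.63 ± 0.506 (SD, n = 3), followed by Socs5 at 4.06 ± 0.717, Socs7 at 3.27 ± 0.63, Socs4 at 2.83 ± 0.761 and Socs6 at 1.6 ± 0.0737. The ranges of Socs3 and Socs5, Socs5 and Socs7, and Socs7 and Socs4 overlapped, so the order among these neighbours is not resolved by range, although Socs3 was above Socs5 and Socs5 above Socs7 in each of the 3 libraries. Socs1 (0.359 ± 0.104), Cish (0.209 ± 0.0981) and Socs2 (0.0433 ± 0.0238) made up a low tier, in which Socs1 and Cish overlapped. All of these are modest levels: among tested protein-coding genes, whose median was 6.55 to 6.86 CPM per kilobase in control libraries, Socs3 ranked at the 40th percentile.

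In IFNγR1KO cells the order was Socs5 at 4.45 ± 0.106 (SD, n = 3), Socs4 at 3.7 ± 0.225, Socs7 at 3.49 ± 0.353, Socs3 at 2.61 ± 0.311 and Socs6 at 2.06 ± 0.185 CPM per kilobase. Socs3 thus went from rank 1 to rank 4 by mean level, and its highest IFNγR1KO library (2.92) was below the lowest library of Socs7 (3.17). Only the pairs of Socs4 with Socs7 and of Socs1 with Cish overlapped among neighbours. Socs1 (0.174 ± 0.0943), Cish (0.108 ± 0.0626) and Socs2 (0.0148 ± 0.0148) stayed the 3 lowest. The order depends on the length used: with the longest transcript of each gene in place of all its exons, Socs5 led in both groups, at 5.6 in control and 6.14 in IFNγR1KO cells, and Socs3 went from 5.24 to 2.95.

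The summed level of the family overlapped between groups, while the share held by Socs3 did not. Summed over the 8 members, the level per length was 16, 16.4 and 18.6 CPM per kilobase in control and 16.4, 16.1 and 17.3 in IFNγR1KO libraries. Socs3 made up 25.4%, 29.5% and 26.9% of this sum in control and 15.9%, 14.3% and 16.9% in IFNγR1KO libraries. Socs6 made up 8.81% to 10.3% in control and 11.9% to 13.1% in IFNγR1KO libraries. Socs5 held 20.5% to 25.6% in control and 26.2% to 27.3% in IFNγR1KO libraries. Shares of a fixed sum move together, so those of Socs5 and Socs6 are not independent of that of Socs3.

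**Figure D3:**
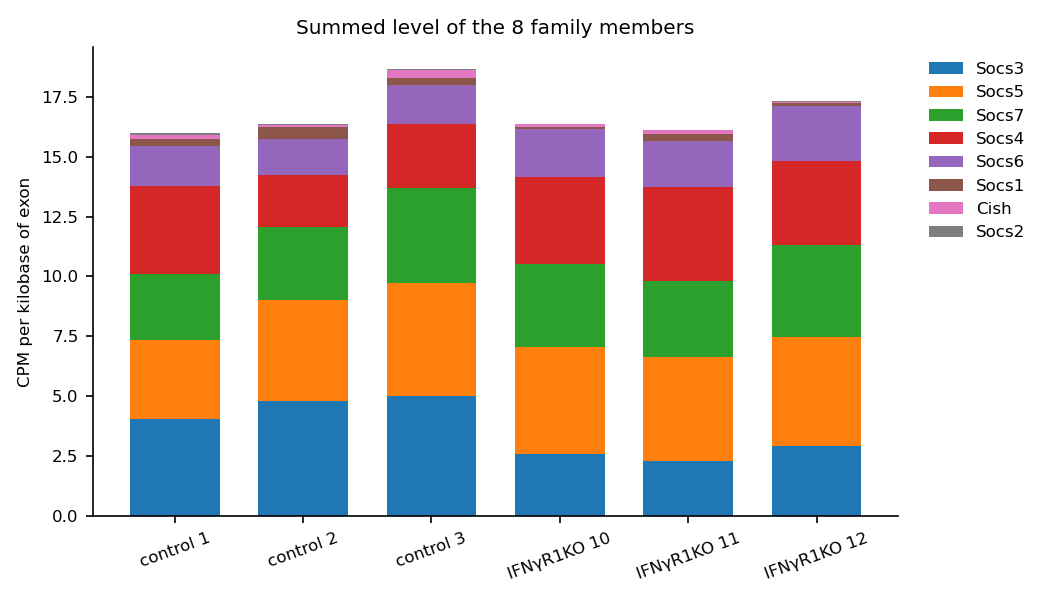
Summed level of the 8 CIS/SOCS transcripts in each library (stacked bars from 0, CPM per kilobase of exonic length), coloured by member. The sums run from 16 to 18.6 in control and from 16.1 to 17.3 in IFNγR1KO libraries, and the Socs3 segment is 4.06 to 5.01 in control and 2.3 to 2.92 in IFNγR1KO libraries.

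Among all tested genes with a mean log2 CPM of at least 3, the 3 whose log2 CPM tracked that of Socs3 most closely over the 6 libraries were Sparcl1 (Pearson r = 0.996), Dap (0.995) and Cdc25a (0.995). All 3 were lower in IFNγR1KO cells, with log2 fold changes of -0.87, -0.58 and -1.11. With 6 libraries in 2 groups such values mostly follow the group difference, and they are given as a description.

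The pathway around the family was read in 9 further gene lists, in which 2 of 105 tested genes were called higher and 16 lower. These 18 calls are 17.1% of the tested genes of the lists, near the 15.3% called among all tested genes. By direction the lists differed from all tested genes, of which 7.62% were called lower and 7.73% higher. Whether the excess of lower calls in the lists goes beyond that of all genes was not tested. The counting setting for strand is not given, so reads from genes that lie opposite each other may be mixed. Of 4 JAK kinases, which relay the signal from the receptor, 4 were tested and 0 were called, with a median log2 fold change of 0.02. Jak1 stood at 63.4 ± 12.1 CPM in control and 69.8 ± 13.1 CPM in IFNγR1KO cells, Jak2 at 26.1 ± 3.14 and 25.2 ± 1.52, Jak3 at 4.27 ± 1.46 and 4.37 ± 0.37, and Tyk2 at 26.3 ± 1.01 and 26.6 ± 3.23 (SD, n = 3 each).

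STAT factors, the transcription factors that JAK kinases activate, had 1 called member of 6 tested (16.7%, against 15.3% of all tested genes). Stat4 had 0 counts in all libraries. Stat5a, which conveys growth hormone, prolactin and interleukin signals, fell from 30.2, 31.4 and 34.2 CPM in control to 18.3, 19.4 and 21.4 CPM in IFNγR1KO libraries (log2 fold change -0.7, SE 0.15, adjusted p = 0.00702 by edgeR). Its call held with each library left out, and 8.52% of its 50-base stretches are shared with Stat3 or Stat5b. Stat3, the factor downstream of gp130, stood at 63.9 ± 12.7 against 52.5 ± 9.79 CPM (adjusted p = 0.321). Stat2 (log2 fold change -0.25), Stat5b (-0.19) and Stat6 (-0.3) were not called either, with adjusted p of 0.369, 0.409 and 0.181.

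The ligase parts that SOCS boxes recruit showed no call among 7 tested, with a median log2 fold change of -0.04. Between groups 2 of the 7 did not overlap, against 32.6% of all tested genes, and these 2 went in opposite directions. Cul5, the cullin scaffold, ran from 36.8 to 49.9 CPM in control and from 51 to 55.2 CPM in IFNγR1KO libraries (log2 fold change 0.27, adjusted p = 0.241 by edgeR). Arih2 ran from 48.3 to 50.7 CPM in control and from 45.4 to 45.5 CPM in IFNγR1KO libraries (-0.11, adjusted p = 0.607). Elob (-0.07) and Eloc (-0.36), the elongins that contact the SOCS box, and Rnf7 (0.02), the RING partner of Cul5, were not called. Of 17 tested proteins of other families with a SOCS box, 2 were called lower. That is 11.8%, against 15.3% of all tested genes called, 7.62% as lower. Spsb4 fell from 64.3 ± 10.6 to 29.9 ± 2.53 CPM (log2 fold change -1.11, adjusted p = 0.000745), with 14.5% of its exonic bases opposite Gm16010, and Asb13 from 13.2 ± 0.916 to 8.42 ± 1.48 CPM (-0.64, adjusted p = 0.037). The call of Asb13 was lost with DESeq2 (adjusted p = 0.0553), with thinned counts (0.0701) and without control 1 (0.0986), control 2 (0.0808), IFNγR1KO 10 (0.121) or IFNγR1KO 11 (0.191).

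Inhibitors outside the family had 1 call among 12 tested (8.33%, against 15.3% of all tested genes). Ptpn6, the phosphatase SHP-1, fell from 31.5 ± 2.93 to 19.8 ± 2.17 CPM (log2 fold change -0.67, adjusted p = 0.0116 by edgeR), a call lost without control 2 (adjusted p = 0.0565) or IFNγR1KO 11 (0.0851). Ptpn2, a phosphatase of JAK kinases, stood 0.38 higher on the log2 scale and missed the threshold (adjusted p = 0.0658).

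**Figure D4:**
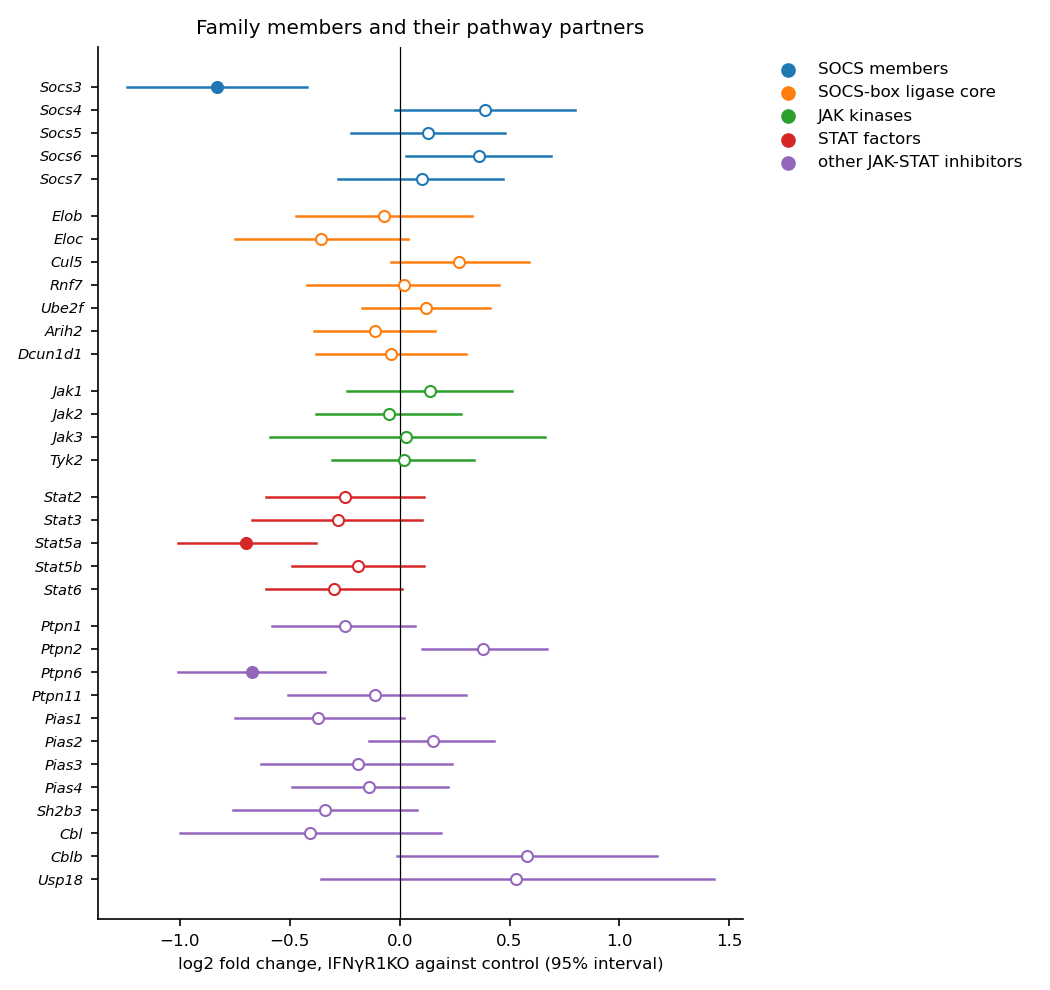
Log2 fold change (IFNγR1KO minus control, points) with its 95% interval (lines) for the tested SOCS members, the SOCS-box ligase core, JAK kinases, STAT factors as reported here and other JAK-STAT inhibitors, coloured by list; filled points passed edgeR's test at an adjusted p under 0.05. Socs3 (-0.83), Stat5a (-0.7) and Ptpn6 (-0.67) are filled, all 3 below 0, and the remaining points are open.

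Of 35 cytokine receptor genes, 17 were tested and 2 called lower. That is 11.8%, against 15.3% of all tested genes called, 7.62% as lower. Il3ra, the interleukin-3 receptor chain, fell from 6.07 ± 0.203 to 0.92 ± 0.498 CPM (log2 fold change -2.69, adjusted p = 0.000303 by edgeR), and Cntfr, which pairs with gp130, fell from 108 ± 17.2 to 70 ± 6.25 CPM (-0.63, adjusted p = 0.015), with its call lost without control 2 (0.0768), IFNγR1KO 10 (0.0681) or IFNγR1KO 11 (0.0938). Il6st, gp130 itself, was not called (-0.11, adjusted p = 0.743). Il6ra, its interleukin-6 binding partner, named after its values were seen, stood at 1.09, 0.995 and 1.06 CPM in control and 1.85, 2.17 and 2.53 CPM in IFNγR1KO libraries. These did not overlap, and the gene narrowly missed the threshold (log2 fold change 1.05, adjusted p = 0.0525 by edgeR). Of 29 cytokine genes 4 were tested and 0 called: Il6 had 0 counts in all libraries, and Lif stood at a log2 fold change of -0.78 (adjusted p = 0.189).

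Among the lists, STAT target genes held the largest share of calls, 8 of 24 tested (33.3%, against 15.3% of all tested genes), of which 6 were lower and 2 higher. The lists were chosen with earlier results of these data known, so this share is a description and was not tested. Gbp2, a guanylate-binding protein, fell from 23.7 ± 3.99 to 6.04 ± 1.97 CPM (log2 fold change -1.97, adjusted p = 0.000206 by edgeR), Gbp3 from 4.1 ± 1.11 to 1.26 ± 0.377 CPM (-1.69, adjusted p = 0.00652), and Psmb8, an immunoproteasome subunit, from 5.94 ± 0.211 to 0.933 ± 0.438 CPM (-2.66, adjusted p = 0.000289). Gbp2 and Gbp3 share 2.03% and 3.75% of their 50-base stretches with other Gbp genes, and 14.7% of the exonic bases of Psmb8 lie opposite Gm20496. Ccnd1, cyclin D1, fell from 328 ± 54.6 to 167 ± 32.2 CPM (-0.97, adjusted p = 0.00288), with 23.4% of its exonic bases opposite LTO1.

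The other calls of this list were Irf1 (log2 fold change -0.59, adjusted p = 0.0203) and Mcl1 (-0.47, adjusted p = 0.0276), named here after their values were seen. Irf1, a transcription factor of interferon responses, stood at 28 ± 0.395 CPM in control and 18.7 ± 2.16 CPM in IFNγR1KO cells, and its call was lost without control 2 (adjusted p = 0.0667), IFNγR1KO 10 (0.109) or IFNγR1KO 11 (0.094). That of Mcl1 was lost without any 1 library other than IFNγR1KO 12 (adjusted p of 0.055 to 0.129). Cebpb, a transcription factor downstream of interleukin-6, rose from 23.8 ± 4.44 to 78.6 ± 13 CPM (1.72, adjusted p = 7.04e-05), with 20.7% of its exonic bases opposite Tmem189. Vegfa, the endothelial growth factor, rose from 65 ± 9.33 to 127 ± 10.2 CPM (0.97, adjusted p = 0.00109). The median log2 fold change of the 24 tested STAT targets was -0.08.

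Receptor tyrosine kinases and adaptors that SOCS proteins are known to bind had 4 calls among 14 tested (28.6%), all lower. Among all tested genes 15.3% were called, 7.62% as lower, and whether the share of this list differs was not tested. Of the 4 calls, only that of Kit held with each library left out. Kit, the stem cell factor receptor bound by Socs1 and Socs6, fell from 44.9 ± 4.87 to 11.5 ± 2.86 CPM (log2 fold change -1.96, adjusted p = 4.78e-05 by edgeR). Irs1, an insulin receptor substrate, fell from 2.34 ± 0.389 to 0.55 ± 0.484 CPM (-2.04, adjusted p = 0.0154), and 30.9% of its exonic bases lie opposite Gm9747. It rests on 3, 8 and 1 counts in IFNγR1KO libraries, its call was lost without IFNγR1KO 10 (adjusted p = 0.065), and its log2 fold change was -2.97 without IFNγR1KO 11. Met, the hepatocyte growth factor receptor, fell from 396 ± 74 to 249 ± 35.8 CPM (-0.67, adjusted p = 0.0202), with the call lost without control 3 (0.052), IFNγR1KO 10 (0.0913) or IFNγR1KO 11 (0.121). Tirap, a Toll-like receptor adaptor bound by Socs1, fell from 13 ± 3.59 to 7.7 ± 1.38 CPM (-0.75, adjusted p = 0.0489), a call at the threshold. It was lost with DESeq2 (adjusted p = 0.0505), limma voom (0.0665), RLE (0.0502) or upper-quartile (0.0586) normalization and thinned counts (0.119). It was also lost without control 1 (0.095), control 3 (0.146), IFNγR1KO 10 (0.177) or IFNγR1KO 11 (0.142).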

How the data were processed

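Per the submitters' processing notes, STAR 2.7.5a placed the reads on GRCm38 and HTSeq 0.11.2 counted them per gene. The authors deposited raw counts, 1 table per library, without normalization, and the study tested them with DESeq2 1.34.0. The annotation release and strand setting are not given in the sources used here. Rows of reads without a gene (53 to 54% of reads listed) were left out.

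Identifiers were matched without version to GENCODE M21 (55154 of 55335). In R 4.3.3, edgeR 4.0.16 was run with filterByExpr (minimum count 10, minimum total 15), TMM normalization and the quasi-likelihood test over all tested genes, with Benjamini-Hochberg adjustment and a threshold of 0.05. The SE is the absolute log2 fold change over the root of F, and intervals use the total degrees of freedom of the fit. The test was checked on simulated data. The exact intervals of pooled ratios and the floor of 3 counts cover counting error only. Exonic length is that of all exons of a gene merged.

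The 14 alternatives included DESeq2 1.42.0, limma voom 3.58.1, other normalizations and filters, thinned counts and leaving out each library. The members and lists were chosen with earlier results of these data known. Lists covered the SOCS-box ligase core, other SOCS-box proteins, JAK kinases, STAT factors, other inhibitors, receptors, ligands, STAT targets, and SOCS-bound kinases and adaptors, besides cell type markers. All members, JAK kinases and STAT factors were to be named (some results of the lists are not reported here), and of other lists up to 4 called genes per direction with the smallest p and a mean of at least 1 CPM.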

Additional observations from a re-analysis of the deposited data

How the results depend on the processing

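No paired analysis was possible because the replicate numbers of control (1, 2, 3) and IFNγR1KO (10, 11, 12) cultures share none. Socs3 kept its direction in every alternative, with log2 fold changes of -0.92 to -0.73 when each library was left out, and its call was lost without IFNγR1KO 11 and under the study's fold threshold, so the number of members called lower ran from 0 to 1 over the left-out libraries and was 0 under that threshold. The number called higher ran from 0 to 1, with Socs4 called without control 1. The fold changes near 0 fell to 0 (Socs5) or changed sign when single libraries were left out. They ranged from 0 to 0.25 for Socs5, -0.01 to 0.26 for Socs7 and -0.03 to 0.3 for Jak1. The ranges were -0.14 to 0.04 for Jak2, -0.23 to 0.19 for Jak3 and -0.05 to 0.13 for Tyk2. Tyk2 also stood at -0.02 with no filter and -0.08 with thinned counts, where Jak3 stood at -0.09. Over all tested genes, leaving out 1 library gave 535 to 1372 genes higher (1054 with all libraries) and 457 to 1452 lower (1039 with all), and the fold threshold gave 443 and 267. The counts fell most without control 2 (535 higher, 552 lower), IFNγR1KO 10 (570, 525) or IFNγR1KO 11 (571, 457). Pathway genes called lower ran from 10, without IFNγR1KO 10 or 11, to 21 (16 with all), and those called higher from 2 to 3 (2 with all). The fold threshold, which by its construction leaves fewer, gave 7 lower and 1 higher. Pathway genes called higher were 4 with limma voom, 4 with no filter and 7 with upper-quartile normalization; the cause was not tested. Leaving out both control 3 and IFNγR1KO 12, an alternative chosen after seeing the data, gave 1447 genes higher and 1617 lower, 25 pathway genes lower and 5 higher, and 0.01 for Jak2. The longest transcript as length moved the control mean of 4 of 8 members (Socs2, Socs3, Socs5 and Socs6) beyond the range of their control libraries. Socs7 (3.27 to 3.38 CPM per kilobase) and Cish (0.209 to 0.285) changed within that range. Members below about 1 CPM were limited by depth.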
